A study of Rattus norvegicus with 48 samples.

Results

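Liver miRNAs of carbohydrate-fed (CHO) rats were compared between 72 h after partial hepatectomy (PHx) and 0 h. All untreated CHO-fed animals collected at those times entered the comparison, 3 at 72 h and 3 at 0 h, which is 6 of the 48 animals in the series. The study followed liver regeneration in male Sprague-Dawley rats that took 36% of their calories as ethanol (EtOH) or as carbohydrate for 6 to 8 weeks, starting at 8 to 14 weeks of age. Both diets were Lieber-DeCarli liquid diets, pair-fed, and PHx removed 70% of the liver. Livers of untreated animals were taken at 0, 6, 24, or 72 h, and those of animals injected with saline or with AM21, an antisense inhibitor of miR-21, at 0 or 24 h. The comparison asked which miRNAs had moved by the latest time after PHx in animals with no ethanol and no injection. Whole liver was assayed, so less of a cell type and less miRNA per cell cannot be told apart.

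miRNAs are short RNAs that hold down the translation and stability of mRNAs whose sequence pairs with the seed, bases 2 to 8 from the 5′ end. After PHx the remaining lobes grow back. In rats most hepatocytes replicate their DNA within the first day or so, nonparenchymal cells follow, and by the third day growth of the tissue is well under way. miR-122 is the dominant miRNA of hepatocytes, and miR-21 is known to rise in regenerating liver.

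Each value was the log2 of the scaled count (CPM, the count relative to the library size) of 1 miRNA in 1 liver, read with the NanoString nCounter assay, and 143 miRNAs were listed. Total counts over these miRNAs were 58168 to 126821 at 0 h and 171919 to 209221 at 72 h, so every 72 h animal was read more deeply than every 0 h animal. miR-122 took 44.5% to 59.8% of the counts at 0 h and 55.6% to 60.9% at 72 h. The 0 h animals carry set numbers 1 to 3 in the labels and the 72 h animals set number 4, and the labels do not say what a set is. Time and set cannot be told apart in this comparison. Replicate 2 at 0 h had the lowest total, 58168, and correlated with the other two at r = 0.94 across miRNAs, against 0.99 between replicates 1 and 3. At 72 h the pairs ranged from 0.986 to 0.990. The SD among the 3 animals was larger at 0 h than at 72 h for 110 of 143 miRNAs, with medians of 0.32 and 0.19 on the log2 scale. The markers of hepatocytes were present in every animal, with miR-122, miR-192, and miR-194 at 47.8% to 61.5% of the counts at 0 h and 58.5% to 63.4% at 72 h.

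The mature sequences below are those of the called miRNAs whose seed families or neighbours the results turn on, with uncalled members of the same families beside them. Capitals mark the seed. They are RefSeq annotations on the rat assembly GRCr8, and 26 of the 28 miRNAs looked up had an entry. Where a name carries no arm, the arm conventionally taken as the guide strand is shown. The first family shares the seed AGCAGCA, and the miRNA that rose most and 3 that were not called all carry it.

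miR-16: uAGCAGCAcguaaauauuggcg
miR-15b: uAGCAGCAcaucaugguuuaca
miR-322: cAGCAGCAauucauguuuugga
miR-195: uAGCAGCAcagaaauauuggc
miR-497: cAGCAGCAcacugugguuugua

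Next come other miRNAs called higher, and 2 that were not called, miR-93 and miR-106b, given for the seed AAAGUGC that they share with miR-17-5p.

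miR-425: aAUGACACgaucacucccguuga
miR-21: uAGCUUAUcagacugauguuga
miR-34a: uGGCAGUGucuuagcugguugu
miR-17-5p: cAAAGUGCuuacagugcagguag
miR-93: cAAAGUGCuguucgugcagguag
miR-106b: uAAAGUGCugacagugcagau

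Among the miRNAs called lower are a pair encoded side by side, miR-451 and miR-144. miR-23a, which was not called, is given beside its paralog miR-23b.

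miR-451: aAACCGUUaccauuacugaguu
miR-144: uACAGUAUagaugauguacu
miR-23b: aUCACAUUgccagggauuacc
miR-23a: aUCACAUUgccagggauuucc
miR-27b: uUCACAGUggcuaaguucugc
miR-27a: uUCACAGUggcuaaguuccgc
miR-181a: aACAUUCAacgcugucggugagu
miR-10a-5p: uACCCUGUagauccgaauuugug
miR-22: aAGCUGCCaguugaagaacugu

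At 72 h, 12 miRNAs were higher and 14 lower than at 0 h. The largest rises were in miR-16 and miR-425, and the largest falls in the red blood cell miRNAs miR-451 and miR-144. A miRNA was called at a limma adjusted p under 0.05, over all 143 miRNAs, in a fit in which the 24 untreated animals of 8 groups shared 1 estimate of the spread. The 26 calls were 18.2% of the miRNAs tested, 8.39% for the higher and 9.79% for the lower direction, and 55 miRNAs (38.5%) had an unadjusted p under 0.05. Called changes ran from 0.44 to 1.72 in size on the log2 scale, and 5 were at least 1. The median change of all 143 was 0, with 72 positive and 71 negative. For 25 of the 26, the 3 animals at 72 h all lay on 1 side of the 3 at 0 h, as they did for 35% of all miRNAs. The number of calls was 11 without 72 h animal 4_7 or without 4_9 and 13 without 0 h replicate 1, and 8 with the set number as a random block. The labels only number the samples, and the paper states 3 animals for each condition, so p-values measure the spread between these animals.

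**Figure D1:**
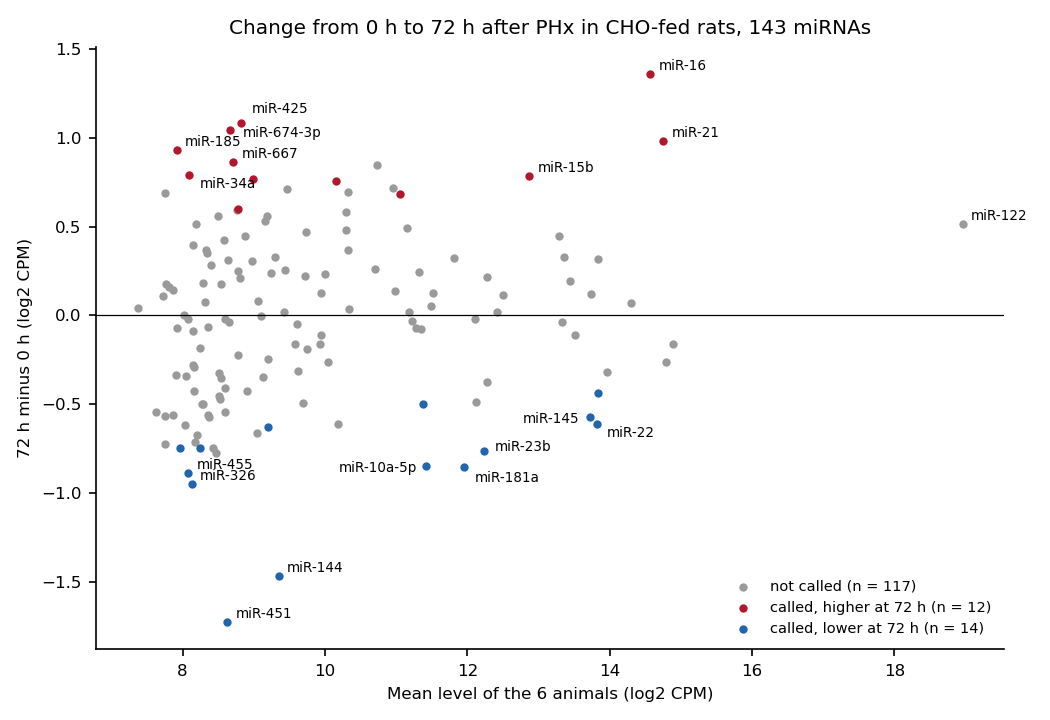
The change from 0 h to 72 h (vertical axis, log2 CPM) of each of 143 miRNAs against its mean level in the 6 animals (horizontal axis, log2 CPM), with called miRNAs in red (12 higher) and blue (14 lower). Among the called, miR-451 and miR-144 lie farthest down and miR-16 farthest up, and miR-122, the most abundant, lies at 0.51 without a call.

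The miR-15/16 family restrains the cell cycle by repressing cyclins and other G1 regulators. Levels are given for each miRNA with the 3 animals at 0 h (replicates 1, 2, and 3) before the 3 at 72 h (4_7, 4_8, and 4_9). The level of miR-16 was 13.70, 13.64, and 14.34 log2 CPM at 0 h and 15.21, 15.18, and 15.36 at 72 h. All 72 h animals were above all 0 h animals, by 1.36 ± 0.23 (SE) on average, or 2.56-fold (limma adjusted p = 0.00063). miR-15b stood at 12.22, 12.83, and 12.37 at 0 h and at 13.49, 13.47, and 12.82 at 72 h. It was the 1 called miRNA whose groups touched, since the lowest 72 h animal matched the highest 0 h animal, and its change was 0.79 ± 0.21 (limma adjusted p = 0.013).

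The other measured members of the family were not called, although miR-195 differs from miR-16 at only 2 of 21 positions. miR-322 changed by 0.47 ± 0.22, miR-195 by 0.24 ± 0.27, and miR-497 by −0.09 ± 0.23. The family of 5 held 2 calls (40%), both higher, against 18.2% called among all miRNAs. This list was chosen with earlier results of these data known. The family had a median change of 0.47 against 0 for all miRNAs. That median is the value of miR-322, and without 0 h replicate 2 it was 0.29, with miR-322 at 0.17. miR-16 and miR-15b lie within the bounds of Smc4, which encodes a condensin subunit, at chr2:155555343-155555364 and chr2:155555197-155555218 on the plus strand. miR-195 and miR-497 lie on chromosome 10.

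miR-425, which lies within Dalrd3 on chromosome 8, and miR-674-3p, a miRNA of rodents, rose by similar amounts from low levels. miR-425 was at 8.15, 8.11, and 8.59 log2 CPM at 0 h and at 9.28, 9.29, and 9.52 at 72 h, a change of 1.08 ± 0.21 (limma adjusted p = 0.00089). For miR-674-3p the levels were 7.80, 8.11, and 8.54 at 0 h and 9.06, 9.13, and 9.39 at 72 h, a change of 1.04 ± 0.20 (limma adjusted p = 0.00089). Neither had overlapping groups, and with 17 to 57 counts at 0 h their change carried an error of 0.17 to 0.18 from counting alone. In 0 h replicate 2 both had 17 counts, under that animal's background count of 18, described below. Together with miR-16 and miR-451 they were the 4 miRNAs called under every alternative way of processing that was tried.

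miR-21, which represses Pdcd4, and miR-34a, a target of p53 that represses cell-cycle and growth factor receptor genes, were both higher at 72 h. miR-21 was at 14.66, 13.46, and 14.65 log2 CPM at 0 h and at 15.11, 15.22, and 15.39 at 72 h. The groups were apart, and 0 h replicate 2 lay over 1 log2 unit under the other two. The change was 0.98 ± 0.29 (limma adjusted p = 0.023), and without that animal it was 0.59 (limma adjusted p = 0.14), which ended the call. miR-34a was at 7.59, 7.93, and 7.58 at 0 h and at 8.67, 8.29, and 8.52 at 72 h. All 72 h animals were above all 0 h animals. Its change was 0.79 ± 0.22 (limma adjusted p = 0.016) on 15 to 28 counts at 0 h and 54 to 77 at 72 h. All 3 animals at 0 h were at or under the background count described below, so the size of the change is uncertain. That count comes from the lowest miRNA probes and not from control probes.

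Of the 4 measured miRNAs listed for proliferation in liver, these 2 were called higher (50%, against 18.2% of all miRNAs called). The 4 had a median of 0.61, and miR-221 (0.43 ± 0.31) and miR-378 (−0.07 ± 0.20) were not called. miR-122 itself was at 18.38, 19.06, and 18.67 log2 CPM at 0 h and 19.25, 19.06, and 19.34 at 72 h. Its change of 0.51 ± 0.18 missed the threshold (limma adjusted p = 0.052), with the 95% interval at 0.14 to 0.89. The hepatocyte miRNAs miR-192 (0.33 ± 0.24) and miR-194 (0.32 ± 0.23) were not called. Without 0 h replicate 2 the changes were 0.69 for miR-122, 0.03 for miR-192, and 0.06 for miR-194.

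The miR-17/92 and miR-106b clusters are driven by MYC and E2F factors and favour entry into the cell cycle. All 7 measured miRNAs of these clusters had positive changes, against 72 of 143 in the table, with a median of 0.56. Of the 7, 1 was called (14.3%, against 18.2% of all miRNAs). Without 0 h replicate 2, 6 of the 7 were positive and the median was 0.18. miR-17-5p was at 10.87, 10.34, and 10.92 log2 CPM at 0 h and at 11.09, 11.53, and 11.55 at 72 h, a change of 0.68 ± 0.18 (limma adjusted p = 0.013). Without 0 h replicate 2 it was 0.50 (limma adjusted p = 0.068). miR-19a had the largest change among the uncalled, 0.85 ± 0.49, which rested on that replicate. Its levels were 11.18, 8.65, and 11.07 at 0 h and 11.55, 10.86, and 11.04 at 72 h, and the change was 0.02 without replicate 2. miR-93 (0.56 ± 0.20, limma adjusted p = 0.057) and miR-106b (0.31), which have the seed of miR-17-5p, were not called. The probe for miR-20a and miR-20b-5p, of the same clusters, was not called either (0.22 ± 0.20), and was at −0.06 without 0 h replicate 2.

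The remaining miRNAs called higher were 5. miR-185, known to act on cholesterol handling, was at 7.34, 7.83, and 7.17 at 0 h and at 8.59, 8.09, and 8.47 at 72 h, a change of 0.93 ± 0.23 (limma adjusted p = 0.0088). Its 0 h counts of 14 to 21 were also all at or under background, so the size of this change is uncertain. miR-130a rose by 0.76 ± 0.25, with 9.04 in 0 h replicate 2 and 10.06 and 10.23 in the other 0 h animals against 10.39 to 10.65 at 72 h. The rise of miR-130a was 0.39 without replicate 2 and was not called there (limma adjusted p = 0.20). miR-342-3p, abundant in leukocytes and encoded within Evl, was at 7.89, 8.86, and 9.04 at 0 h and at 9.29, 9.55, and 9.27 at 72 h. The change was 0.77 ± 0.23, and the lowest 0 h level was that of a single animal, replicate 1, without which the change was 0.42 and not called (limma adjusted p = 0.14). The call was also lost without any 1 of the 72 h animals. miR-667 (0.87 ± 0.24) and miR-337 (0.60 ± 0.18), which come from the imprinted Dlk1-Dio3 region on chromosome 6, rose without overlap of the groups. Of the 6 runs that left out 1 animal, miR-667 was called in 3 and miR-337 in 2. miR-539, encoded near miR-667, was not called (−0.33 ± 0.28).

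**Figure D2:**
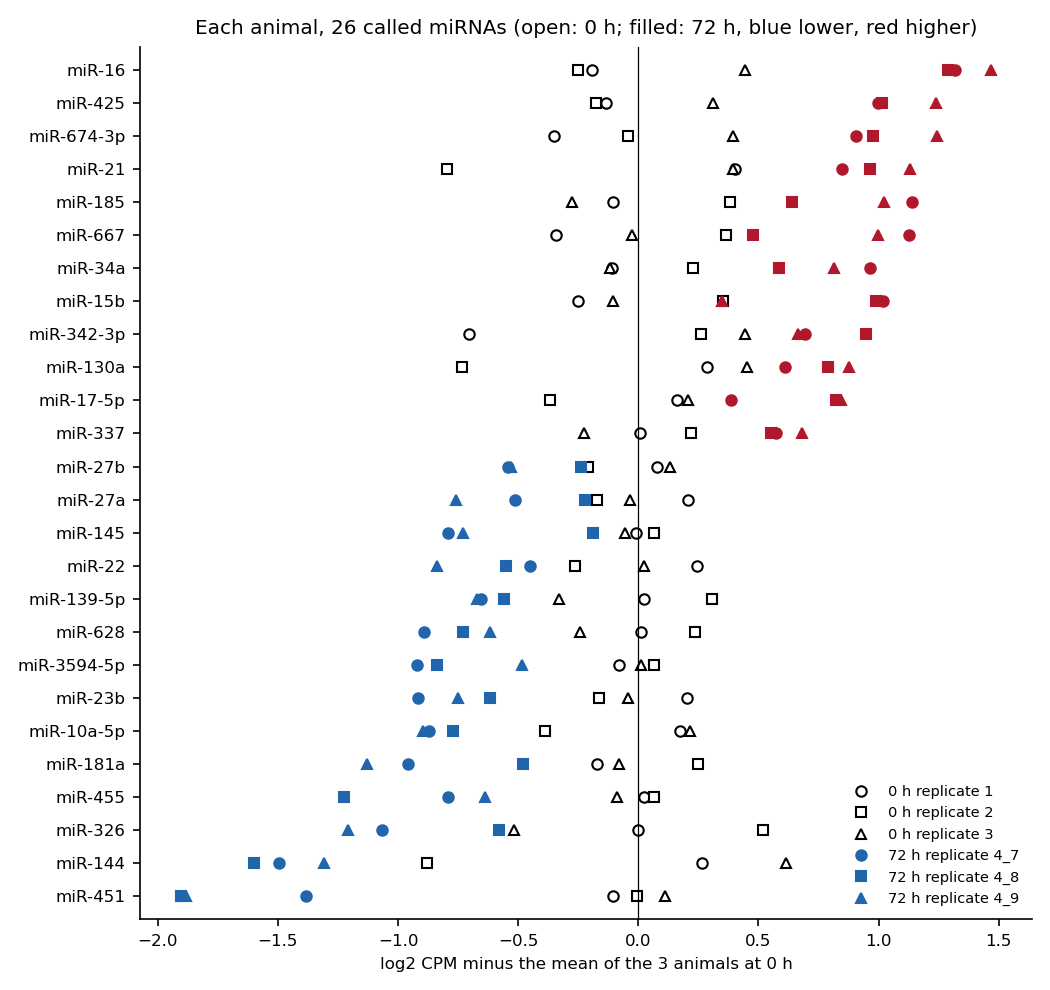
Each animal's level of the 26 called miRNAs as the difference from the mean of the 3 animals at 0 h (horizontal axis, log2 CPM), with 0 h animals open and 72 h animals filled, and 1 marker shape per replicate. The groups are apart for all but miR-15b, and 0 h replicate 2 (open squares) lies low for miR-21, miR-130a, and miR-144.

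miR-451 and miR-144 are made from 1 transcript of the red cell lineage under GATA1, and mature red blood cells are full of miR-451. They fell further than any other miRNA. miR-451 was at 9.39, 9.48, and 9.60 log2 CPM at 0 h and at 8.10, 7.59, and 7.61 at 72 h, so that the 3 animals at 0 h lay close together and well above all 72 h animals. The change was −1.72 ± 0.30 (limma adjusted p = 0.00063), a level 3.3-fold lower. Raw counts were 88, 45, and 115 at 0 h and 52, 33, and 37 at 72 h despite the larger totals at 72 h. Of the 3 animals at 72 h, 2 were at or under the background count described below, so the size of the fall is uncertain. miR-144 was at 10.35, 9.20, and 10.70 at 0 h and at 8.59, 8.48, and 8.78 at 72 h, a change of −1.47 ± 0.38 (limma adjusted p = 0.012). The low 0 h animal was again replicate 2, without which the change was −1.91 (limma adjusted p = 0.0026). Without 0 h replicate 1 it was −1.33 and was not called (limma adjusted p = 0.059). The call of miR-144 was also lost when all 48 animals were fitted and with the set number as a random block.

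The 2 red blood cell markers measured made up 0.141% to 0.285% of all counts at 0 h and 0.0553% to 0.0624% at 72 h. They are encoded next to each other on the plus strand at chr10:63459585-63459606 and chr10:63459446-63459465. miR-16 is also present in red blood cells, and it rose while miR-451 fell. Among the leukocyte markers, 1 of 4 was called, miR-342-3p (25%, against 18.2% of all miRNAs), and the 4 had a median change of 0.47. Their summed share was 0.359% to 0.416% at 0 h and 0.294% to 0.401% at 72 h, and the B and T cell miRNA miR-150 changed by −0.61 ± 0.23 (limma adjusted p = 0.057). The part of blood left in the tissue in these values was not tested.

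The miR-23b/27b/24 cluster, known for its action on TGF-β signalling in liver development, lies within Aopep on chromosome 17 and its paralog miR-23a/27a/24 on chromosome 19. miR-23b was at 12.82, 12.45, and 12.57 log2 CPM at 0 h and at 11.70, 11.998, and 11.86 at 72 h. All 72 h animals were lower, with a change of −0.76 ± 0.19 (limma adjusted p = 0.0088). miR-27b was at 14.13, 13.84, and 14.19 at 0 h and 13.51, 13.81, and 13.52 at 72 h, a change of −0.44 ± 0.15. The groups did not overlap, but 0 h replicate 2 and 72 h animal 4_8 nearly met. miR-27a fell by 0.50 ± 0.16 on the log2 scale, also with groups that nearly met. With each of the 6 animals left out in turn, miR-27b was called in 2 runs and miR-27a in 3.

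miR-23a, which has 1 base of 21 that differs from miR-23b, was at 13.42, 13.13, and 13.50 at 0 h and at 13.16, 13.52, and 13.28 at 72 h. Its groups overlapped fully and its change was −0.04 ± 0.17, with a 95% interval from −0.38 to 0.31. miR-24, encoded in both clusters, changed by 0.26 ± 0.14 and was not called. The 5 measured miRNAs of these clusters held 3 calls (60%), all lower, with a median of −0.44. Among all miRNAs 18.2% were called and 9.79% were called lower, and this list too was chosen with earlier results known. Whether miR-23b differed from miR-23a in its change was not tested.

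miR-181a, a miRNA that tunes lymphocyte signalling and is also found in endothelium, was at 12.21, 12.63, and 12.30 log2 CPM at 0 h and at 11.42, 11.90, and 11.25 at 72 h, a change of −0.86 ± 0.20 (limma adjusted p = 0.0088). Its family member miR-181c was not called, at −0.77 ± 0.35 (limma adjusted p = 0.11), and without 0 h replicate 2 its change was −0.36. miR-3593-3p, at −0.75 ± 0.31, was not called either, and was at −0.51 without that replicate. miR-10a-5p, encoded among the Hoxb genes, was at 12.02, 11.46, and 12.06 at 0 h and at 10.98, 11.08, and 10.95 at 72 h. The change was −0.85 ± 0.21 (limma adjusted p = 0.0088), and the 72 h animals lay close together, below all 0 h animals. miR-181a, miR-10a-5p, miR-23b, and miR-455 were called whichever of the 6 animals was left out, as were the 4 named above, and the other 18 lost their call without at least 1 animal. With log10 total count as a covariate, miR-181a was at −0.47 and was not called (limma adjusted p = 0.15).

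Highly expressed miRNAs that fell by less included miR-22, known for its action on lipid metabolism in liver, and miR-145, a marker of smooth muscle and stellate cells. miR-22 was at 14.36, 13.86, and 14.14 at 0 h and at 13.67, 13.57, and 13.28 at 72 h, a change of −0.61 ± 0.17 (limma adjusted p = 0.013). miR-145 changed by −0.57 ± 0.20 (limma adjusted p = 0.046) from levels of 13.95 to 14.07 at 0 h to 13.21, 13.82, and 13.28 at 72 h. The call of miR-145 held in 1 of the 6 runs that left out 1 animal. miR-143, encoded beside miR-145, was at 8.71, 7.83, and 8.62 at 0 h and at 8.45, 8.41, and 8.12 at 72 h, a change of −0.06 ± 0.23. Of the 4 measured mesenchymal markers only miR-145 was called (25%, against 18.2% of all miRNAs), and the 4 had a median of −0.04. Without 0 h replicate 2 that median was −0.22, and the change of miR-143 was −0.34. The summed share of the 4 was 2.39% to 2.90% at 0 h and 1.30% to 2.19% at 72 h.

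The remaining miRNAs called lower were read with few counts. miR-139-5p, encoded within Pde2a, had 98, 57, and 86 counts at 0 h and 88, 86, and 88 at 72 h. These counts moved little, while the scaled library sizes by which they are divided were 1.62-fold larger at 72 h, and the log2 CPM fell by 0.63 ± 0.19. miR-326, encoded within Arrb1, had 51, 35, and 40 counts at 0 h and 35, 45, and 32 at 72 h, with a change in log2 CPM of −0.95 ± 0.29. miR-455 (−0.89 ± 0.22), miR-628 (−0.75 ± 0.25), and miR-3594-5p (−0.75 ± 0.25) likewise held 21 to 52 counts in every animal. Of the 6 runs that left out 1 animal, miR-455 was called in 6, miR-628 in 1, and miR-3594-5p in 0.

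Over the 14 miRNAs called lower, the mean raw count at 72 h was 0.48 to 1.15 times that at 0 h, and it was lower at 72 h for 8 of them. For the 12 called higher, the mean count was 2.36 to 3.86 times larger at 72 h. The 14 probes with the lowest counts over all animals, taken as a measure of the background, had medians of 18 to 31 counts at 0 h and 37.5 to 41.5 at 72 h. Among these probes is the called miR-455 itself. Of the 26 called miRNAs, 8 had at least 1 animal at or under its background count, among them miR-451, miR-326, and miR-3594-5p with 2 animals each at 72 h, and miR-185 and miR-34a were there in all 3 animals at 0 h. Among the 36 miRNAs with the lowest mean counts (30.3 to 48.5), the median change was −0.34, with 2 called higher and 4 lower. In the next 36 by mean count it was 0.19 with 5 higher and none lower, in the 36 after those 0.13 with 2 and 4, and in the highest 35 it was 0.02 with 3 and 6. The part of depth and background in the changes of the lowest probes was not tested.

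**Figure D3:**
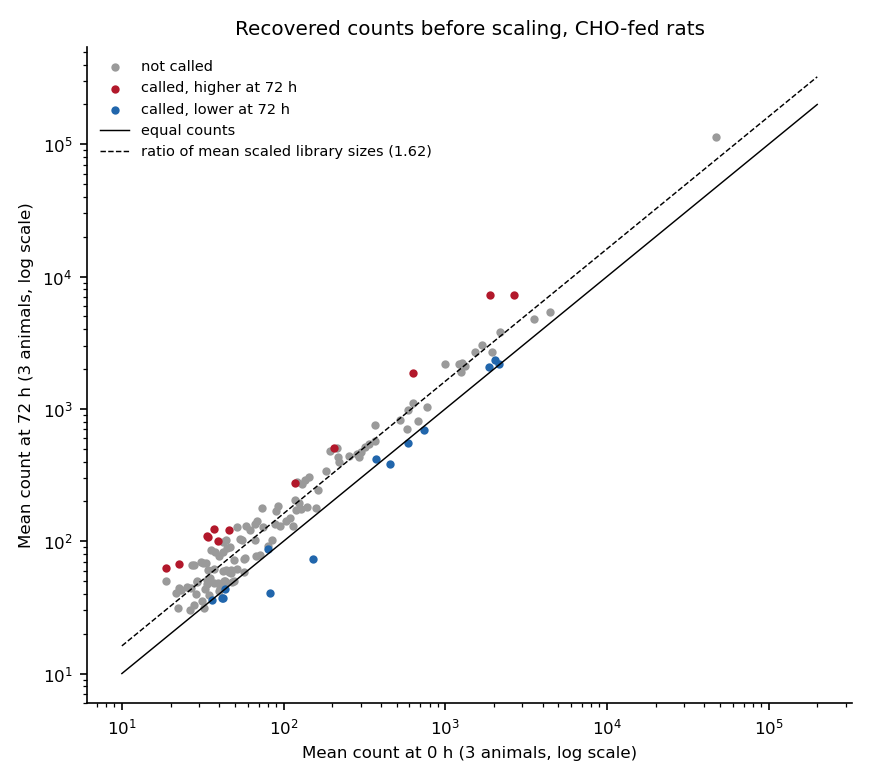
Mean counts of the 3 animals at 72 h (vertical axis) against those at 0 h (horizontal axis) for 143 miRNAs on log scales, before any scaling, with the line of equal counts and a dashed line at the 1.62-fold ratio of scaled library sizes. The miRNAs called lower (blue) lie at or under the line of equal counts, or slightly above it, at 0.48 to 1.15 times the 0 h count, and those called higher (red) lie above the dashed line.

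Other lists are read against the 18.2% called among all miRNAs. None of 8 let-7 miRNAs, 5 miR-30 miRNAs, or 3 miR-29 miRNAs was called, and their medians were 0.10, 0.04, and 0.02, or 0.09, −0.20, and −0.27 without 0 h replicate 2. let-7a came nearest, with 0.45 ± 0.16 (limma adjusted p = 0.052). The 5 miRNAs of the miR-99/100 and miR-125 families had a median of −0.38 with 4 negative and no call. Of 14 measured miRNAs that rise when hepatic stellate cells are activated in culture, 1 was higher (miR-21) and 2 lower (miR-145 and miR-22), or 21.4%, and the median was 0.22. Of 21 that fall on activation, 1 was higher (miR-16) and 1 lower (miR-181a), or 9.52%, with a median of 0.05, or −0.19 without 0 h replicate 2. Of 25 miRNAs enriched in liver sinusoidal endothelial cells, 1 was higher (miR-16) and 4 lower, or 20% of the list, with a median of −0.07, the lower being miR-145, miR-10a-5p, miR-139-5p, and miR-181a. None of 5 miRNAs of Kupffer cells after PHx was called. The endothelial marker miR-126 was not called, with a change of −0.16 ± 0.29, or −0.57 without 0 h replicate 2. The muscle and neural miRNAs, 3 in all, were not called.

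EtOH-fed rats, all of them other animals, were collected at the same times. Between 0 h and 72 h they also had 26 calls (18.2%), 15 higher (10.5%) and 11 lower (7.69%), and 15 of the 26 in each diet were the same miRNAs. These 15 moved in the same direction in both diets, 8 higher and 7 lower. Of the 26 called in CHO-fed rats, 25 had the same sign in EtOH-fed rats, against 112 of all 143 miRNAs. The 0 h and 72 h groups carried the same set numbers in both diets, so this comparison does not separate time from set either.

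miR-16 rose by 1.26 ± 0.23 in EtOH-fed rats, from 14.41, 14.36, and 14.39 log2 CPM at 0 h to 15.74, 15.67, and 15.51 at 72 h. miR-451 fell there by 0.90 ± 0.30 (limma adjusted p = 0.045), from 9.61, 9.36, and 10.21 to 8.03, 9.30, and 9.15. The groups did not overlap but nearly met, at 9.36 and 9.30, and 72 h animal 4_10 lay well below the other animals. The difference between diets in the change of miR-451 was 0.83, with a 95% interval from −0.06 to 1.71, and it was not called. miR-144 in EtOH-fed rats was not called (−0.86 ± 0.38, limma adjusted p = 0.12), and the interval of the difference was −0.51 to 1.73.

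No miRNA differed between diets in its change at 72 h by limma at an adjusted p under 0.05, while 8 (5.59%) did so at an unadjusted p under 0.05, and the smallest adjusted p was 0.23. Among the 26, the 1 with an unadjusted p under 0.05 was miR-342-3p. It was at 9.27, 9.71, and 8.93 log2 CPM in EtOH-fed rats at 0 h and at 9.02, 9.08, and 8.95 at 72 h, a change of −0.28 ± 0.23. The difference from the rise in CHO-fed rats was −1.05 (unadjusted p = 0.0033 and adjusted p = 0.23 by limma), with a 95% interval from −1.71 to −0.39. Called in CHO-fed but not in EtOH-fed rats were 11 miRNAs, among them miR-21 (0.74 ± 0.29 in EtOH-fed rats), miR-667 (0.21 ± 0.24), and miR-455 (−0.35 ± 0.22). The intervals of these 3 differences between diets all included 0.

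**Figure D4:**
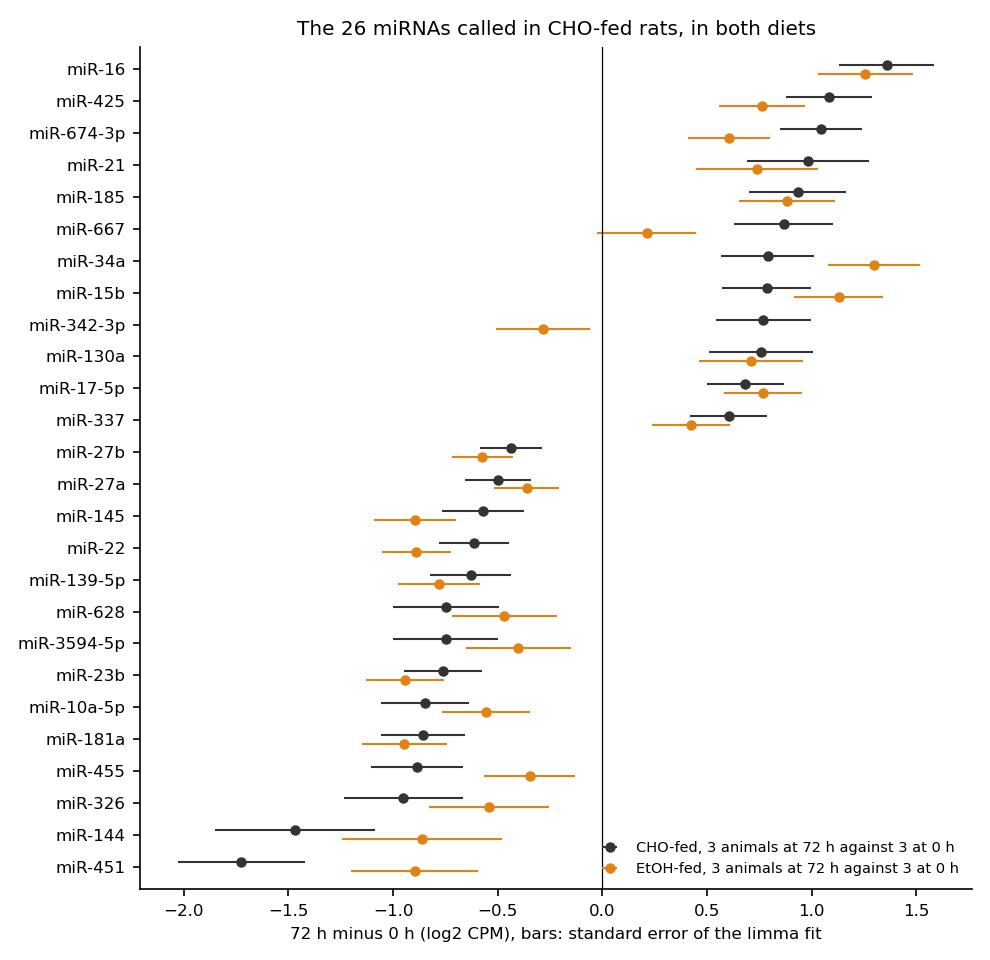
The change from 0 h to 72 h (horizontal axis, log2 CPM) of the 26 miRNAs called in CHO-fed rats, in CHO-fed (black) and EtOH-fed (orange) rats, with bars of 1 standard error. All but miR-342-3p have the same sign in both diets.

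The other times place the 72 h values on a course. The comparisons with 24 h and 6 h reuse the 72 h animals and those of 24 h or 6 h with 0 h reuse the 0 h animals, so they are values side by side and not independent of the main comparison. In CHO-fed rats miR-16 had group means of 13.89 ± 0.39 (SD, n = 3) before PHx, 14.11 ± 0.31 after 6 h, 14.52 ± 0.44 after 24 h, and 15.25 ± 0.10 after 72 h. Neighbouring means up to 24 h differed by less than the sum of their SDs, and the 72 h level was 1.14 above that at 6 h (limma adjusted p = 0.0017) and 0.73 above that at 24 h (limma adjusted p = 0.11). miR-425 followed the same order with means of 8.28 ± 0.27, 8.5 ± 0.23, 8.77 ± 0.08, and 9.36 ± 0.14.

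miR-21 and miR-17-5p had means at 24 h that were at least as high as those at 72 h. For miR-21 the means in the same order of times were 14.26 ± 0.69 (SD, n = 3), 14.03 ± 0.37, 15.31 ± 0.26, and 15.24 ± 0.14. For miR-17-5p they were 10.71 ± 0.32, 10.90 ± 0.04, 11.61 ± 0.17, and 11.39 ± 0.26, and the difference between 24 h and 0 h of 0.90 was 1 of 2 called (1.4%) in that comparison (limma adjusted p = 0.0093). miR-674-3p was the other (0.81, limma adjusted p = 0.030). miR-342-3p, 1 of 3 miRNAs (2.1%) called between 6 h and 0 h, had risen by 0.98 at 6 h (limma adjusted p = 0.020), was at 8.76 ± 0.13 at 24 h, and stood at 9.37 ± 0.16 at 72 h.

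miR-451 and miR-144 fell late. miR-451 had means of 9.49 ± 0.11 (SD, n = 3), 9.53 ± 0.30, 9.10 ± 0.46, and 7.77 ± 0.29 from the first to the last time. miR-144 was at 10.08 ± 0.78, 10.06 ± 0.35, 10.14 ± 0.48, and 8.62 ± 0.15. Together with miR-455 they were the 3 miRNAs (2.1%) called between 72 h and 24 h, by −1.33 for miR-451, −1.52 for miR-144, and −0.86 for miR-455. None was called there when all 48 animals were fitted, or without 72 h animal 4_8 or 24 h replicate 2. The 6 h animals carry the same set number, 4, as the 72 h animals, and the differences from 6 h were −1.76 for miR-451 and −1.44 for miR-144 (limma adjusted p = 0.00046 and 0.0079).

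Within set 4, 44 miRNAs (30.8%) were called between 72 h and 6 h, 21 higher (14.7%) and 23 lower (16.1%). The 72 h levels of miR-16, miR-425, miR-674-3p, miR-21, miR-185, miR-130a, and miR-17-5p were called higher than at 6 h, by 0.49 to 1.21. Those of miR-181a (−1.18), miR-326 (−1.12), miR-3594-5p (−1.06), miR-145 (−0.99), miR-139-5p (−0.90), miR-10a-5p (−0.57), and miR-23b (−0.50) were called lower. Not called against 6 h were 10 of the 26. miR-34a (0.56), miR-15b (0.49), miR-667 (0.36), miR-337 (0.20), miR-455 (−0.48), and miR-628 (−0.63) were among them, and miR-342-3p had the opposite sign (−0.21). The others were miR-22, miR-27a, and miR-27b (−0.20, −0.01, and −0.07), and their 6 h means of 13.70, 11.14, and 13.68 lay near the 72 h means of 13.51, 11.13, and 13.62. Total counts at 6 h were 87009 to 134618, under those at 72 h, so depth differed in this comparison too.

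**Figure D5:**
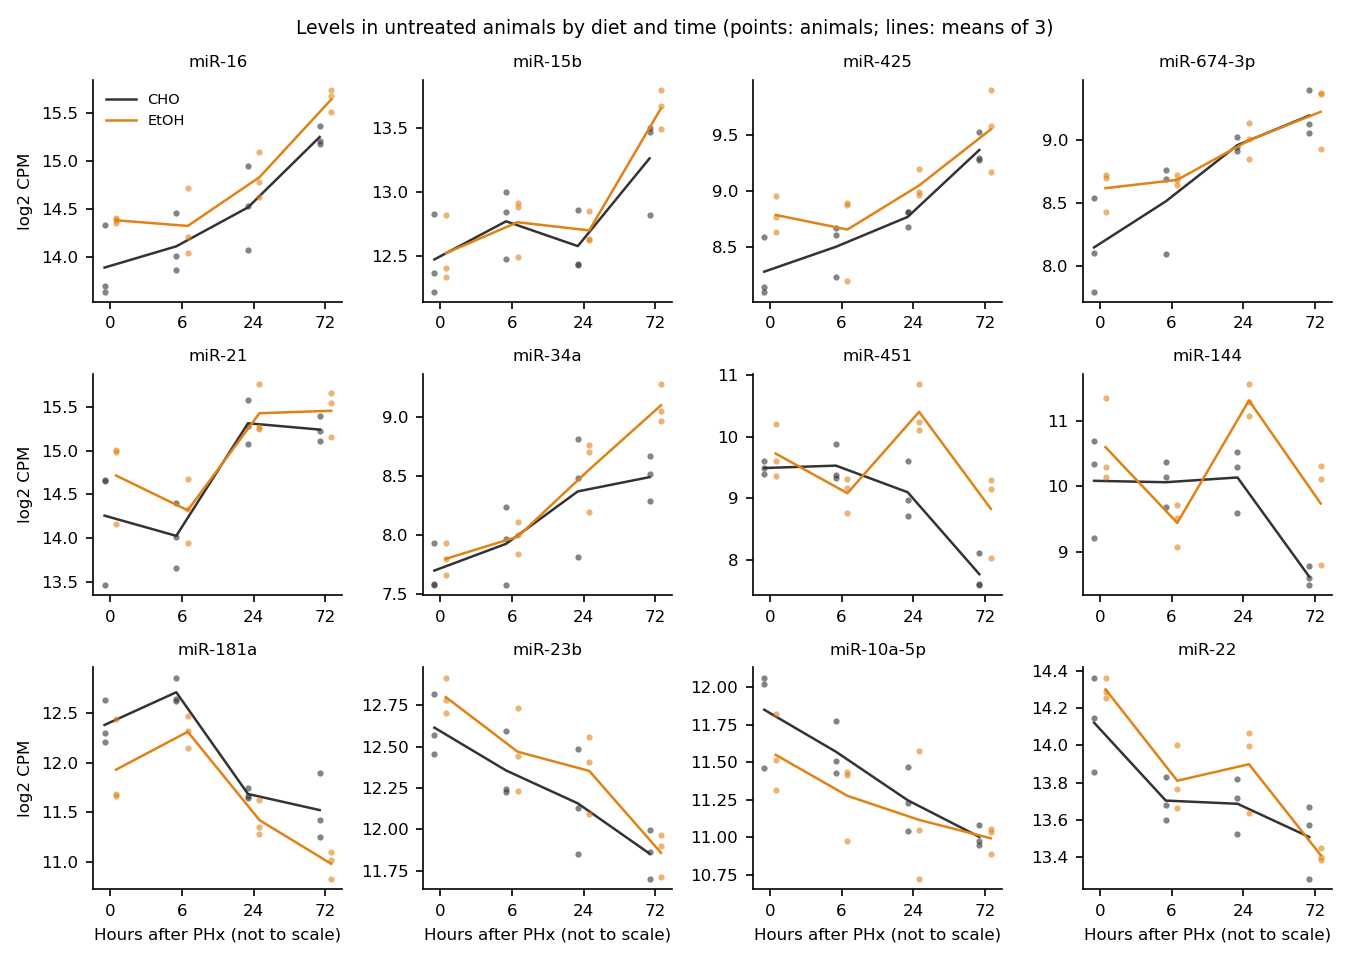
Levels (vertical axis, log2 CPM) of 12 called miRNAs at 0, 6, 24, and 72 h in untreated CHO-fed (black) and EtOH-fed (orange) rats, with points for animals and lines through the means of 3. In CHO-fed rats miR-16 and miR-425 climb to 72 h, miR-21 is level from 24 h, and miR-451 and miR-144 drop after 24 h.

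Saline-injected CHO-fed rats at 0 h gave a second resting group of 3, in sets 1 to 3, that the main comparison did not use. Against them the untreated 72 h animals, which both comparisons share, had 26 calls (18.2%), 16 higher (11.2%) and 10 lower (6.99%), with a median change of 0.08. The changes were 1.36 for miR-16, 0.98 for miR-425, 1.34 for miR-674-3p, and 1.73 for miR-21, each called. miR-451 differed by −1.49 (limma adjusted p = 0.011), and miR-144 by −1.20 (limma adjusted p = 0.094). miR-27b (−0.79), miR-23b (−0.93), miR-181a (−0.81), miR-10a-5p (−0.69), and miR-22 (−0.62) were called lower. miR-15b (0.44), miR-17-5p (0.40), miR-130a (0.53), miR-145 (−0.48), miR-455 (−0.36), miR-326 (−0.66), miR-628 (−0.21), and miR-3594-5p (−0.45) were not called. Saline and untreated animals at 0 h had no called difference by limma, with 9 miRNAs (6.29%) at an unadjusted p under 0.05.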

How the data were processed

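The authors assayed liver RNA with NanoString's service against a larger list of rat miRNAs, scaled counts by TMM (edgeR) and converted them with voom (limma). The deposited table holds log2 CPM of 143 miRNAs in 48 animals. The filter that left them, control probes, and raw counts were not given in the sources used here. Counts were recovered from the log2 values and voom's pseudocount of 0.5, and all lay within 0.001 of a whole number. Total counts were 58168 to 267582 over the 48 animals, and counting error alone was computed from them. limma 3.58.1 in R 4.3.3 (lmFit, eBayes, Benjamini-Hochberg adjusted p under 0.05) was fitted to the 24 untreated animals, or to 36 with saline animals added for that comparison. The steps were tested on simulated data. miRNAs named are all those called, miR-21, miR-122, listed miRNAs, and the 3 uncalled miRNAs with the largest changes (miR-19a, miR-181c, and miR-3593-3p). Members and lists were chosen with earlier results of these data known. Cell type lists other than markers come from the paper's signatures of stellate, endothelial, and Kupffer cells. Sequences and neighbours came from RefSeq (GRCr8). 141 of 143 names matched a RefSeq miRNA gene. Figures were drawn with matplotlib.

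Animals of a group differed by more than counting error: chi-square per degree of freedom between them was 9.81 to 42.8. The alternatives were other scalings, a pseudocount of 5, a minimum of 50 counts in 3 animals, weights, other sets of animals, log10 total count as a covariate, a random block of the set number, and leaving out each animal. Subtracting the background of the 14 lowest probes, and list medians without 0 h replicate 2, were chosen after seeing the data.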

Additional observations from a re-analysis of the deposited data

How the results depend on the processing

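All 26 called miRNAs kept their direction under every alternative run. The number called between 72 h and 0 h in CHO-fed rats was 20 to 37 under the other scalings, pseudocount, count minimum, weights, trend, covariate, and wider sets of animals. It was 5 when only the 6 animals were fitted (miR-16, miR-425, miR-674-3p, miR-451, and miR-144), a fit with fewer samples. The set number as a random replicate block left 8 (miR-16, miR-425, miR-674-3p, miR-451, miR-10a-5p, miR-181a, miR-23b, and miR-455), and a fixed block cannot be fitted, since 72 h and 0 h share no number. Leaving out 1 animal gave 11 to 34, with 11 without 72 h animal 4_7 or 4_9 and 13 without 0 h replicate 1. Higher and lower calls, 12 and 14, were 10 and 18 when scaled to the 100 highest probes and 7 and 13 on totals without miR-122. With log10 total count as a covariate 23 were called, 16 of them shared. The 10 lost were miR-21 (0.25), miR-130a (0.15), miR-17-5p (0.44), miR-181a (−0.47), miR-139-5p (−0.16), miR-326 (−0.23), miR-145 (−0.62), miR-27a (−0.51), miR-3594-5p (−0.41), and miR-628 (−0.34). That covariate turned the uncalled miR-19a to −0.29 and miR-3593-3p to 0.10. The cause was not tested.

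For EtOH-fed rats, array weights gave 54 and leaving out 1 animal 17 to 21 (17 without 72 h animal 4_10). The difference between diets had 1 call with array weights, 1 with saline animals added, and 0 to 1 leaving out 1 animal (1 without CHO 0 h replicate 2). Against 6 h the covariate gave 8, and leaving out 1 animal 23 to 42 (25 without 4_9, 23 and 24 without 6 h animals 4_1 and 4_2). Against 24 h, array weights gave 8, all 48 animals 0, saline animals added 0, the replicate block 0, and leaving out 1 animal 0 to 3 (1 without 4_7, 0 without 4_8 or 24 h replicate 2). Against 0 h saline animals, array weights gave 48, the compared animals alone 16, and leaving out 1 animal 11 to 33 (14 without 4_7, 11 without 4_9, 16 and 17 without saline replicates 1 and 2). With 14 to 57 counts at 0 h, changes of the lowest called miRNAs carry counting errors near 0.2. Subtracting background kept 25 of the 26 calls, all but miR-145. Values it gives for animals at or under background, such as the 72 h animals of miR-451, are set by the floor of 1 count and are not measured changes. For the 8 called miRNAs with such an animal, a kept call is therefore no check of the change. miR-455 is also among the probes that set the background.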
